A study of Mus musculus with 35 samples.

Results

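The interferon response genes described here are 40 listed genes that interferons switch on, or that carry the interferon signal. Of these 40, 38 were measured, among 18193 genes in all, each by 1 probe set. Every probe set annotated to a listed gene was collected, and where a gene had several, the one with the highest mean over the arrays was kept. Isg15 was left out because its probe set is annotated to several genes, and Ifi44 was left out because no probe set with 1 symbol is listed for it. Membership did not use the measured values. By role it holds 4 genes of signalling and transcription, 4 sensors of nucleic acid, 14 antiviral effectors, 6 GTPases, 6 enzymes of ISG15, ubiquitin and ADP-ribose, and 4 other interferon-stimulated genes.

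RNA from 1 brain hemisphere per array, of male mice on the FVB strain, was hybridised to 35 Affymetrix mouse arrays. Wild type FVB mice and mice on the same strain that lack the β2 adrenergic receptor, a receptor for adrenaline and noradrenaline, each gave 7 arrays of the ischemic hemisphere after middle cerebral artery occlusion (MCAO) and 3 of the same side after a sham operation, all taken 24 h after surgery. MCAO blocks the main artery of 1 hemisphere and is a model of stroke. Mice without surgery, called naive, gave 8 wild type and 7 knockout arrays that the authors normalized apart, so that naive and operated mice are not compared in level. The labels name no tissue or cell type for the knockout, the ages are not given in the sources used here, and no control group shares an allele or treatment beyond the strain. Values are log2 signals, so that a difference of 1 is a doubling. The labels do not say that the arrays are separate animals, and all p-values therefore measure the spread between arrays, which may be technical.

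Type I interferons act on nearly every cell through a surface receptor that activates a transcription complex holding Stat2 and Irf9. This complex binds the interferon-stimulated response element in the promoters of many genes, while interferon gamma acts through a different site, the gamma-activated site, and through Irf1. In brain the genes are known to respond in microglia, astrocytes, endothelium and immune cells that enter after injury, to virus as well as to nucleic acid from dying cells.

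The 2 motifs were searched in RefSeq promoter windows of build GRCm38.p6, from 250 bases before to 50 bases after each annotated start, on both strands. Of the 38 measured genes 30 had at least 1 window. The core of the interferon-stimulated response element, spelled GAAA, any 2 bases, GAAA, was present in 15 of these 30 genes (50%), against 3.99% of all 27025 genes with a window and 3.63% of the 14452 that are measured on the array. The core of the gamma-activated site, TTCNNNGAA, was present in 9 of 30 (30.0%), against 9.55% of all genes. Both were present in 5 genes.
The shorter core AANNGAAA, which lies inside every response element core, was present in 23 of 30 (76.7%), against 26.7% of all genes. The reference is C57BL/6J sequence and the mice are FVB, so single bases or longer stretches may differ. The FVB sequence was not examined, so a window, that of Ifi202b included, need not be the promoter used in these mice. A match describes the letters in this window and does not show that a factor binds there.

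Sequences are shown for a few genes whose stretch before the start holds a match, to show the kind and place of the motif. They were chosen for the match and do not stand for all members: Irf9, Oasl1, Oasl2 and Cmpk2, described below, held neither motif in their windows. Each is the 150 bases just before the annotated start, written 5′ to 3′ on the gene's strand, with a match to either motif in capitals.
Ifi202b (chr1:173982845-173982994, minus strand): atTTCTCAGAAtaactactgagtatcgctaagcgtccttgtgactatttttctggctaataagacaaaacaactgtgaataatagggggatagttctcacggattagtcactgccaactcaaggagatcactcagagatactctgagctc
Gbp2 (chr3:142620513-142620662, plus strand): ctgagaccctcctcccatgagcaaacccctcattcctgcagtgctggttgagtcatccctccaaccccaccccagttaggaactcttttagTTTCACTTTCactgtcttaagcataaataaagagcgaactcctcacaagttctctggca
Irgm1 (chr11:48871421-48871570, minus strand): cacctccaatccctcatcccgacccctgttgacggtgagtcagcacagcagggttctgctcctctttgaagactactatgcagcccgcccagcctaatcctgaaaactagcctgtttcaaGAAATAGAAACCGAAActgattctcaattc
Igtp (chr11:58199406-58199555, plus strand): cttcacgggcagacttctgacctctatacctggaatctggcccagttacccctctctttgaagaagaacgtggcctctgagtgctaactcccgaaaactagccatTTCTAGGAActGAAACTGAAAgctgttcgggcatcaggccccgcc
Irgm2 (chr11:58214827-58214976, plus strand): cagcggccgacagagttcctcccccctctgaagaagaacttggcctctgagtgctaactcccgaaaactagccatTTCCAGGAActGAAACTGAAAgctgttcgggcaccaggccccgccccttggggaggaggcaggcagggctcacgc
Irf1 (chr11:53769864-53770013, plus strand): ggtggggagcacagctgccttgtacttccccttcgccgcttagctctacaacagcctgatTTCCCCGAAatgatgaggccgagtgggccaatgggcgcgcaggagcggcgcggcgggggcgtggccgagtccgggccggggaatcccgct
Ifit1 (chr19:34640739-34640888, plus strand): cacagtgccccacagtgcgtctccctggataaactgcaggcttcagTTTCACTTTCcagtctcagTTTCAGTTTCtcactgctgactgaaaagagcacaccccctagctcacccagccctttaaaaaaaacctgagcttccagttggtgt

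Ifi202b and Irf1 held the gamma-activated site alone, at 148 and 90 bases before the start. Gbp2 held 1 response element core on the opposite strand, 59 bases before the start. Irgm1 held a pair that share 4 bases, beginning 30 and 24 bases before it. Igtp and Irgm2, both on chromosome 11, held the same arrangement: a gamma-activated site core, then 2 bases, then the response element core. In Igtp the pair began at 45 and 34 bases, and in Irgm2 at 75 and 64 bases, before the start. Ifit1 held 2 cores on the opposite strand, at 104 and 85 bases. Distances are from the first base of the match, as printed, to the start.

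In wild type mice 20 of the 38 genes were higher after MCAO and 1 was lower, against 8.68% and 7.27% of all genes (limma, Benjamini-Hochberg adjusted p under 0.05 over 18193 genes). The median log2 change of the 38 was 0.60, beside 0.046 over all genes, and 37 of the 38 changes were above 0. In knockout mice 28 of the 38 were higher and none lower, against 16.1% and 8.90% of all genes, with a median of 0.75 beside -0.0045 over all genes. All 7 MCAO values lay above all 3 sham values for 24 genes in wild type (10.6% of all genes) and below them for 1 (9.26%). In the knockout they lay above for 22 (15.6%) and below for 0 (9.17%). Of the genes called higher, 18 were shared, which is 90.0% of the wild type calls and 64.3% of the knockout calls. The shared part of the calls over all genes was not counted, so these shares are not read as particular to the 38. Since these are whole hemispheres, more RNA per cell and more cells of an expressing type cannot be told apart.

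These counts rest on 3 sham arrays per genotype. Without wild type sham array 3, 13 genes were higher in wild type. Over all 18193 genes 863 were then higher, against 1579 with every array. Without knockout sham arrays 1, 2 or 3, 18, 16 and 18 were higher in knockout mice. Over all genes 2412, 1750 and 1839 were then higher, against 2925 with every array. When each array was centred on its median, 20 were higher and 2, Oasl1 and Zbp1, were lower in knockout mice. Over all 18193 genes 1820 were then higher and 4501 lower. That centring moved the median of all genes to -0.16, and the share of higher genes among all knockout calls from 64.4% to 28.8%. In wild type it kept 20 higher and 1 lower of the 38, beside 1175 higher and 1964 lower of all genes. The share of higher genes among all wild type calls went from 54.4% to 37.4%.

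**Figure D1:**
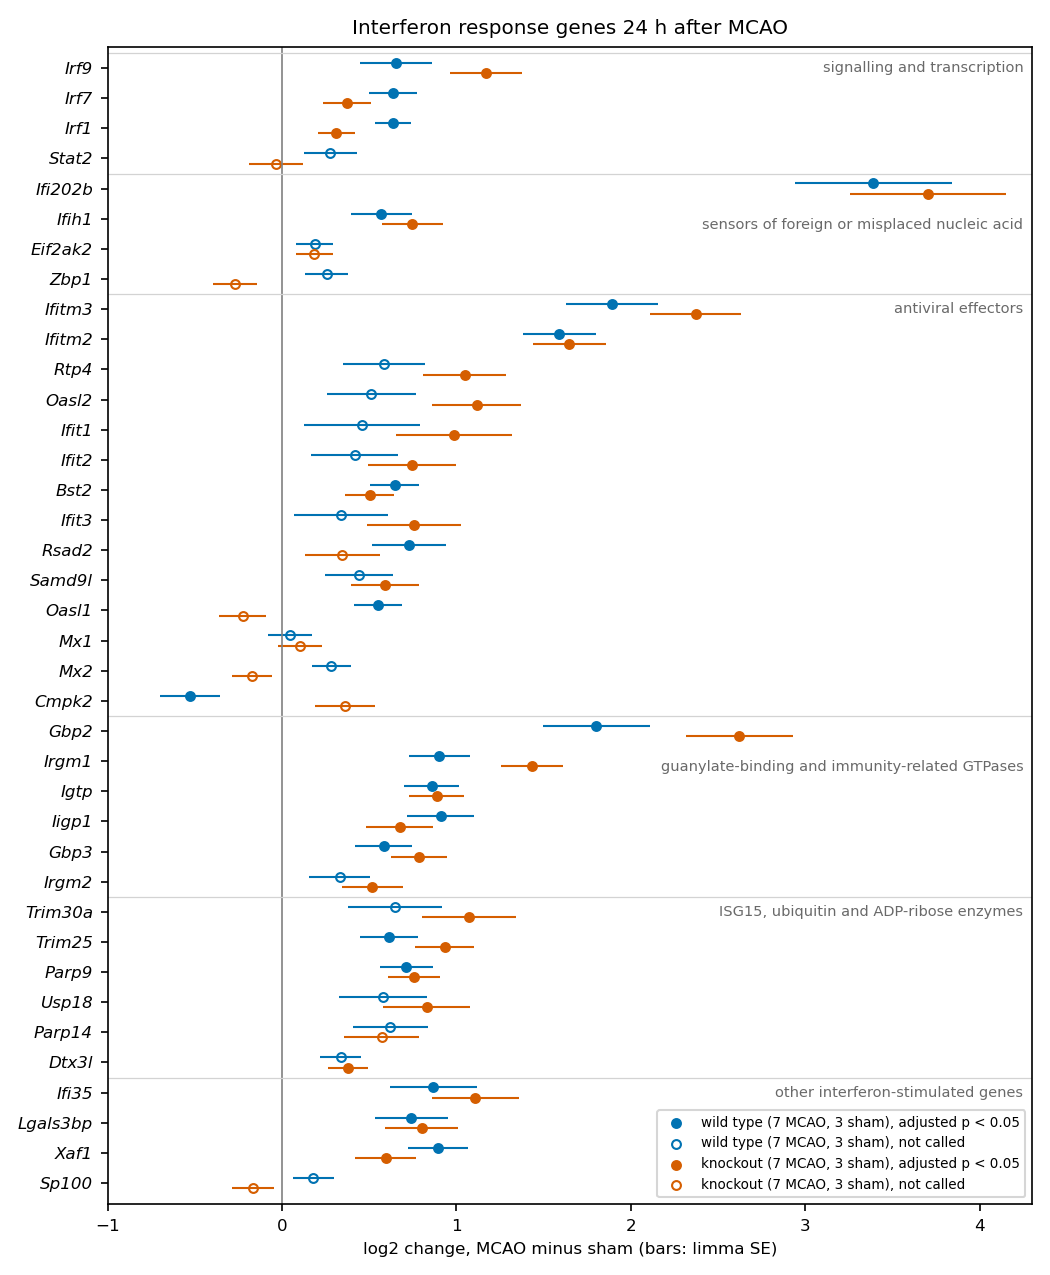
Log2 change, MCAO minus sham, of the 38 interferon response genes by role in wild type (blue) and knockout mice (orange), with limma standard errors as bars. Filled points passed an adjusted p under 0.05. Ifi202b, Ifitm3, Ifitm2 and Gbp2 lie farthest to the right in both genotypes, and most genes lie between 0 and 1.2.

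Among the genes of signalling and transcription, 3 of 4 rose in each genotype. Irf9, the DNA-binding part of the type I interferon complex, was at 7.26, 6.62 and 6.68 in the wild type sham arrays, and at 6.76 to 7.86 (median 7.50, n = 7) after MCAO. The knockout values were 6.91, 6.54 and 6.68 after sham surgery and 7.45 to 8.32 (median 7.89) after MCAO. The groups overlapped in wild type, where MCAO array 4 was lowest, and did not overlap in knockout mice. Irf9 rose by 0.65 in wild type (limma adjusted p = 0.0352) and by 1.17 in the knockout (SE 0.21, adjusted p = 0.000402). The wild type call was lost in 8 of 34 alternative analyses, and the knockout call in none.

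Irf1, the factor that carries much of the interferon gamma response, was at 7.90, 7.69 and 7.62 in the wild type sham arrays and at 8.29 to 8.52 (median 8.32) after MCAO. In knockout mice the sham arrays were at 8.09, 7.97 and 8.14 and the MCAO arrays at 8.08 to 8.62 (median 8.39). The MCAO arrays of the genotypes overlapped, and the knockout sham arrays all lay above the wild type ones. Irf1 rose by 0.64 (adjusted p = 0.00035) in wild type, and by 0.31 (adjusted p = 0.0345) in knockout mice, where MCAO and sham overlapped. The knockout call was lost in 13 of 34 alternatives, among them leaving out any 1 knockout sham array or knockout MCAO array 1, 3 or 4.
Irf7, the factor that amplifies interferon alpha production, rose by 0.64 (adjusted p = 0.00334) in wild type. In knockout mice it rose by 0.37 (adjusted p = 0.0499), a call lost in 22 of 33 alternatives. Stat2, the partner of Irf9, changed by 0.28 in wild type (adjusted p = 0.225) and by -0.03 in the knockout (adjusted p = 0.894). Another probe set of Stat2 differed from this, at 0.51 in knockout mice.

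Of the sensors, 2 of 4 rose in each genotype. Ifi202b codes for a DNA-binding protein of the cytosol and nucleus, and had the largest change of the 38 genes in both genotypes. It was at 4.0, 3.79 and 3.85 in the wild type sham arrays and at 5.18 to 8.07 (median 7.79) after MCAO. In knockout mice the sham arrays were at 3.64, 4.13 and 4.0 and the MCAO arrays at 6.97 to 8.27 (median 7.93). Sham and MCAO did not overlap in either genotype, and wild type MCAO array 4, at 5.18, was far below the other 6. Ifi202b rose by 3.39 in wild type (SE 0.45, adjusted p = 3.75e-05) and by 3.70 in the knockout (SE 0.45, adjusted p = 9.17e-06). The sham values are near the low end of the arrays, whose lowest signals were 2.57 to 2.91. They were not tested against background, and no fold is given. Its probe set, like those of Ifi35, Trim25 and Gbp2, carries a suffix that marks probes shared with similar transcripts, so close relatives of Ifi202b may add to the signal.

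Ifih1, the sensor of long double-stranded RNA, rose by 0.57 in wild type (adjusted p = 0.0311) and 0.75 in the knockout (adjusted p = 0.00414). Its sham values were tight, at 6.01 to 6.07 in wild type and 5.84 to 5.94 in knockout mice. The MCAO arrays spread from 6.03 to 7.06 and from 6.42 to 7.12, with wild type MCAO array 4 inside the sham range. Eif2ak2, the kinase that halts translation on double-stranded RNA, changed by 0.19 in wild type (adjusted p = 0.232) and by 0.18 in the knockout (adjusted p = 0.204). Zbp1, a sensor of Z-form nucleic acid that can start necroptosis, changed by 0.26 (adjusted p = 0.166) in wild type and by -0.27 (adjusted p = 0.114) in knockout mice.

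Of the 14 antiviral effectors, 5 rose and 1 fell in wild type, and 9 rose in knockout mice. The largest changes were those of Ifitm3 and Ifitm2, membrane proteins that stop viruses from fusing with the cell. Ifitm3 was at 8.81, 9.37 and 8.62 in the wild type sham arrays and at 10.45 to 11.02 (median 10.86) after MCAO. The knockout values were 8.71, 8.12 and 8.54 after sham surgery and 10.06 to 11.50 (median 11.08) after MCAO. No MCAO array of either genotype reached down to the sham range. Ifitm3 rose by 1.89 in wild type (SE 0.26, adjusted p = 5.85e-05) and by 2.37 in the knockout (SE 0.26, adjusted p = 3.7e-06), and Ifitm2 by 1.59 in wild type (SE 0.21, adjusted p = 3.61e-05) and 1.65 in the knockout (SE 0.21, adjusted p = 1.59e-05). For Ifitm2 the 7 wild type MCAO arrays lay within 9.60 to 9.77, while those of the knockout spread from 8.72 to 10.25.

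Bst2, which tethers budding virus to the cell surface, rose by 0.65 in wild type (adjusted p = 0.00328) and by 0.50 in the knockout (adjusted p = 0.0124). Rsad2, or viperin, which makes a chain-terminating nucleotide, rose by 0.73 (adjusted p = 0.024) in wild type and changed by 0.35 (adjusted p = 0.235) in knockout mice. Its wild type call was lost in 5 of 34 alternatives, among them the mean of the probe sets and leaving out wild type sham array 1 or 3. The 2 other probe sets of Rsad2 changed in the same direction and were not called.
The Ifit genes, whose proteins bind RNA of foreign form, and Oasl2, a relative of the oligoadenylate synthetases, passed the test in knockout mice and not in wild type. Ifit1 was at 5.35, 4.58 and 5.01 in the wild type sham arrays and at 5.09 to 5.81 (median 5.38) after MCAO, and these groups overlapped. In knockout mice it was at 4.94, 5.14 and 5.01 after sham surgery. The knockout MCAO arrays ran from 5.15 to 7.11 (median 5.68), with array 4 at the top and array 3 next. Ifit1 changed by 0.46 (adjusted p = 0.357) in wild type and rose by 0.99 (adjusted p = 0.0348) in knockout mice. The knockout call was lost in 10 of 33 alternatives, among them leaving out any 1 knockout sham array or knockout MCAO array 3, 4 or 7.

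Oasl2 was at 4.88, 4.67 and 4.70 in the wild type sham arrays and at 4.83 to 5.55 (median 5.23) after MCAO. The knockout arrays were at 4.81, 4.37 and 4.85 after sham surgery and at 5.21 to 6.88 (median 5.60) after MCAO, without overlap. It rose by 1.12 (SE 0.25, adjusted p = 0.00333) in knockout mice, and changed by 0.51 (adjusted p = 0.173) in wild type. Ifit2 (0.74), Ifit3 (0.76), Samd9l (0.59) and Rtp4 (1.05), a chaperone of receptors, also rose in knockout mice. In wild type their changes were 0.42, 0.34, 0.44 and 0.59, and none was called. The knockout calls of Ifit2, Ifit3 and Samd9l were lost in 11, 17 and 10 of 34 alternatives, among them leaving out any 1 knockout sham array or knockout MCAO array 3 or 4, and that of Rtp4 in none. Mx1, a dynamin-like GTPase against influenza viruses, stood at 3.73 to 4.52 over all 20 arrays and changed by 0.04 and 0.10. Its relative Mx2 changed by 0.28 in wild type (adjusted p = 0.0937) and -0.17 in the knockout (adjusted p = 0.264).

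Among the GTPases, 5 of 6 rose in wild type and all 6 in knockout mice. Gbp2, a guanylate-binding protein that assembles on the membranes of microbes, was at 5.97, 5.75 and 5.09 in the wild type sham arrays and at 6.75 to 7.93 (median 7.44) after MCAO. In the knockout it was at 5.15, 4.43 and 5.4 after sham surgery and at 7.13 to 8.58 (median 7.35) after MCAO. All MCAO arrays were above all sham arrays in both genotypes. Gbp2 rose by 1.80 in wild type (SE 0.31, adjusted p = 0.000474), 3.49-fold and by 2.62 in the knockout (SE 0.31, adjusted p = 6.67e-06), 6.15-fold. Its other probe set rose by 2.07 and 2.27.

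Irgm1, a regulator of the immunity-related GTPases, was at 7.72, 7.92 and 7.64 in the wild type sham arrays and at 8.44 to 8.81 (median 8.73) after MCAO. The knockout arrays stood at 7.56, 7.44 and 6.79 after sham surgery and at 8.42 to 9.36 (median 8.56) after MCAO. Again no values overlapped, and the 3 knockout sham arrays were below the 3 wild type ones. It rose by 0.90 in wild type (SE 0.18, adjusted p = 0.00147) and by 1.43 in the knockout (SE 0.18, adjusted p = 1.04e-05). Igtp, another regulator of this family, rose by 0.86 in wild type (SE 0.16, adjusted p = 0.000896) and 0.89 in the knockout (adjusted p = 0.000422), and the effector GTPase Iigp1 by 0.91 in wild type (SE 0.19, adjusted p = 0.00281) and 0.67 in the knockout (adjusted p = 0.0147). Gbp3 rose by 0.58 in wild type (adjusted p = 0.0177) and 0.79 in the knockout (adjusted p = 0.00153). Irgm2, which shares its promoter arrangement with Igtp, changed by 0.33 (adjusted p = 0.199) in wild type, where no values overlapped, and rose by 0.52 (adjusted p = 0.0338) in knockout mice.

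Of the 6 enzymes of ISG15, ubiquitin and ADP-ribose, 2 rose in wild type and 5 in knockout mice. Trim25, a ubiquitin ligase that acts on RNA sensors, rose by 0.61 in wild type (adjusted p = 0.0167) and 0.93 in the knockout (adjusted p = 0.0005). Parp9, an ADP-ribosyltransferase that works with Dtx3l, rose by 0.71 in wild type (adjusted p = 0.00284) and 0.76 in the knockout (adjusted p = 0.00117). Usp18, which removes ISG15 from proteins and dampens the interferon receptor, was at 4.96, 4.59 and 5.02 in the wild type sham arrays and at 5.19 to 6.0 (median 5.33) after MCAO. The knockout arrays gave 5.21, 5.07 and 5.01 after sham surgery and 5.31 to 6.85 (median 5.90). No values overlapped in either genotype. It changed by 0.58 (adjusted p = 0.121) in wild type and rose by 0.83 (adjusted p = 0.0203) in knockout mice. Trim30a, a ubiquitin ligase family member, changed by 0.65 (adjusted p = 0.105) in wild type, where no values overlapped, and rose by 1.07 (SE 0.27, adjusted p = 0.00667) in knockout mice. Its other probe set was called the other way round, in wild type (0.79, adjusted p = 0.0129 over all probe sets) and not in the knockout (0.45, adjusted p = 0.11). Dtx3l rose by 0.38 (adjusted p = 0.0224) in knockout mice, and Parp14 was called in neither genotype (0.62, adjusted p = 0.0545, and 0.57, adjusted p = 0.0568).

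Of the remaining 4 genes, 3 rose in both genotypes. Ifi35, a partner of Nmi in signalling, rose by 0.87 in wild type (SE 0.25, adjusted p = 0.0215) and 1.11 in the knockout (SE 0.25, adjusted p = 0.0031). Xaf1, a partner of the apoptosis inhibitor XIAP, rose by 0.89 in wild type (SE 0.17, adjusted p = 0.00147) and 0.60 in the knockout (adjusted p = 0.0172), though its other probe set was not called in either genotype (0.29 and -0.22). Lgals3bp, a secreted galectin-binding glycoprotein, rose by 0.74 in wild type (SE 0.21, adjusted p = 0.0198) and 0.80 in the knockout (adjusted p = 0.0088). Sp100, a component of nuclear bodies, changed by 0.18 in wild type (adjusted p = 0.308) and -0.17 in the knockout (adjusted p = 0.306).

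**Figure D2:**
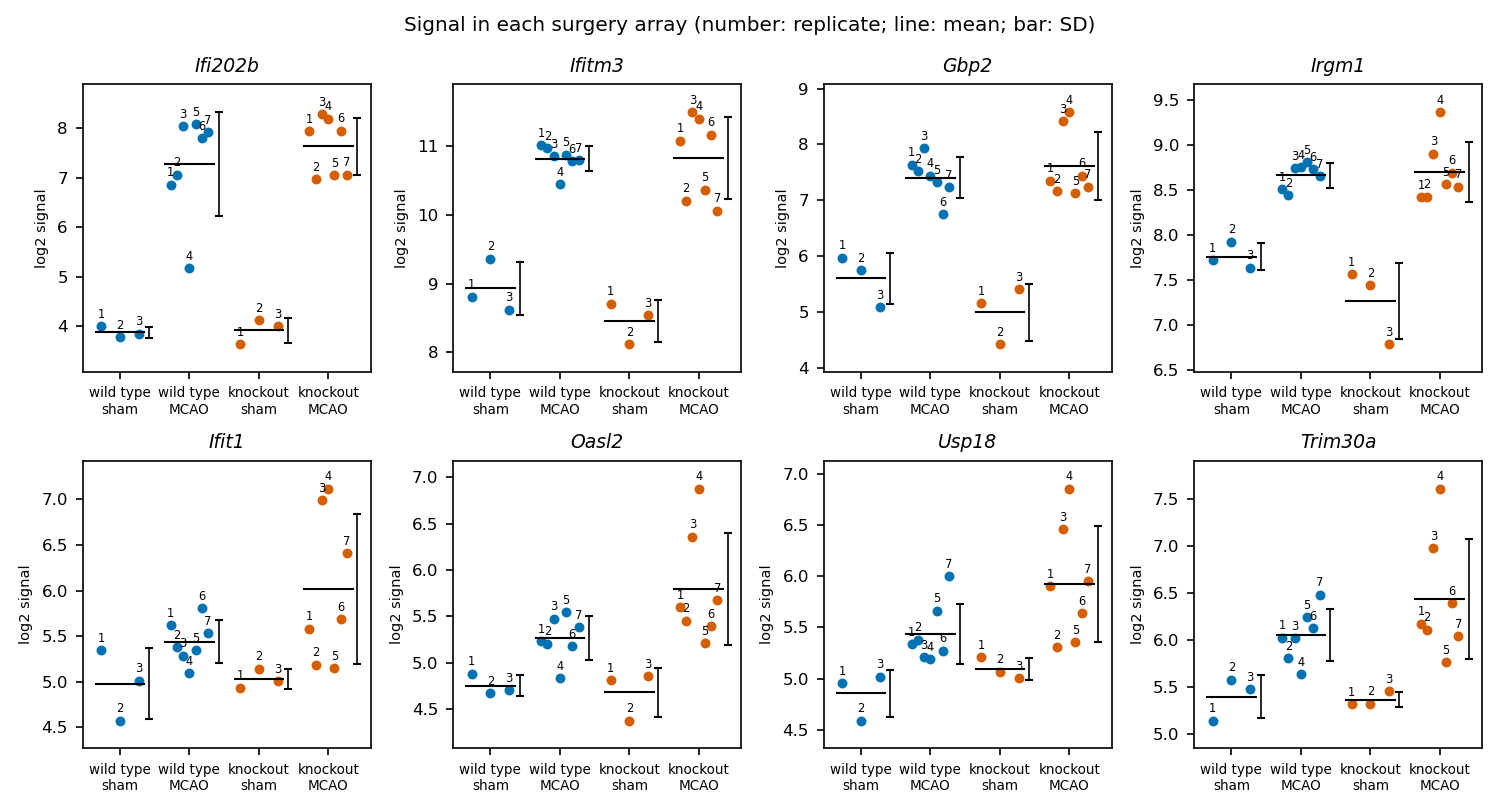
Log2 signal of 8 genes in each of the 20 surgery arrays, with replicate numbers, the mean as a line and the SD as a bar, for wild type (blue, 3 sham and 7 MCAO) and knockout (orange, 3 sham and 7 MCAO). Ifi202b is at 5.18 in wild type MCAO array 4, and Ifit1, Oasl2, Usp18 and Trim30a are highest in knockout MCAO arrays 3 and 4.

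The response differed from array to array. Measured as the median over the 38 genes of the difference from the sham mean of the same genotype, the wild type MCAO arrays lay between 0.45 and 0.81. The knockout MCAO arrays lay between 0.35 and 1.25. Knockout array 4 (1.25) was the highest of its group for 23 of the 38 genes and array 3 (0.99) for 8, while arrays 2 and 5 were the lowest at 0.35 each. Knockout array 4 also stood apart as a whole array. Its median correlation with its group over all genes, 0.979, and its median signal, 6.32, were the lowest of the 20 surgery arrays. The part of this in its response was not tested. The SD over the 7 MCAO arrays was larger in the knockout for 26 of the 38 genes (68.4%), against 45.6% of all genes, with a median SD of 0.34 against 0.24 in wild type. The labels do not say what the array numbers stand for. Wild type MCAO arrays 1, 2 and 3 lay at 0.48, 0.47 and 0.56, and arrays 5, 6 and 7 at 0.81, 0.73 and 0.77. The difference between the 3′ and 5′ control probe sets of actin was 0.53, 0.58 and 0.39 in the former. In the latter it was 0.98, 0.93 and 0.99. The knockout MCAO arrays did not have this order. In arrays 3 and 4, with the highest response, the actin difference was 0.49 and 0.68. It was 1.59 and 1.75 in arrays 1 and 6, which lay at 0.58 and 0.57 in response. In arrays 2, 5 and 7 it was 1.15, 0.99 and 0.43. A link of array number or of this difference to the response was not tested.

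Other measures moved with these arrays. The mean level of 7 monocyte and macrophage markers was 6.41 and 6.59 in knockout MCAO arrays 3 and 4, 5.22 to 5.68 in the other 5, 5.48 to 5.88 in the wild type MCAO arrays and 5.04 to 5.25 in all sham arrays. Of these markers none was called after MCAO in wild type and 2 rose in knockout mice. Among the knockout MCAO arrays endothelial markers were also highest in arrays 3 and 4 (8.70 and 8.99, against 8.04 to 8.56), and 4 of 8 rose in each genotype. Markers of meninges and fibroblasts were at 8.81 and 8.93 there, against 7.53 to 8.53 in the other knockout MCAO arrays and 7.74 to 8.84 in the wild type ones. The mean level of 8 neutrophil markers went from 5.23 to 5.29 in wild type sham arrays to 6.13 to 7.12 after MCAO, without overlap. In the knockout it was 5.43 to 5.68 after sham surgery and 5.24 to 6.16 after MCAO, with overlap. S100a8 and S100a9 rose in both genotypes, and Camp, Ltf and Mpo fell in the knockout. In the test of the difference between genotypes, Camp, Elane, Ltf and Mpo had a lower change in the knockout, while S100a8 and S100a9 were not called. The part of these cells in the interferon results was not tested. The mean level of 8 lymphocyte markers was 5.43 to 5.52 in wild type sham arrays and 5.73 to 5.92 in knockout sham arrays. After MCAO it was 5.45 to 5.85 and 5.33 to 5.66. Of these markers 0 were called after MCAO in wild type, and 3 fell in the knockout. In the test of the difference 1 had a lower change in the knockout. Of 7 microglial markers 5 fell in each genotype, and in the test of the difference 3 had a higher change in the knockout and 0 a lower one. The mean microglial level was 8.17 to 8.40 in wild type sham arrays and 6.69 to 7.27 after MCAO. In the knockout it was 7.95 to 8.06 after sham surgery and 7.06 to 7.60 after MCAO. Arrays 2 and 5, the lowest for these genes, had the highest difference between the 3′ and 5′ control probe sets of Gapdh, at 0.38 and 1.18 against at most 0.0014 in the other 18 surgery arrays. The part of cell makeup and of RNA quality in the spread was not tested. Without arrays 2 and 5, 28 genes were higher in the knockout, and Ifit2 was no longer among them. Over all genes 2464 were then higher, against 2925 with every array.

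**Figure D3:**
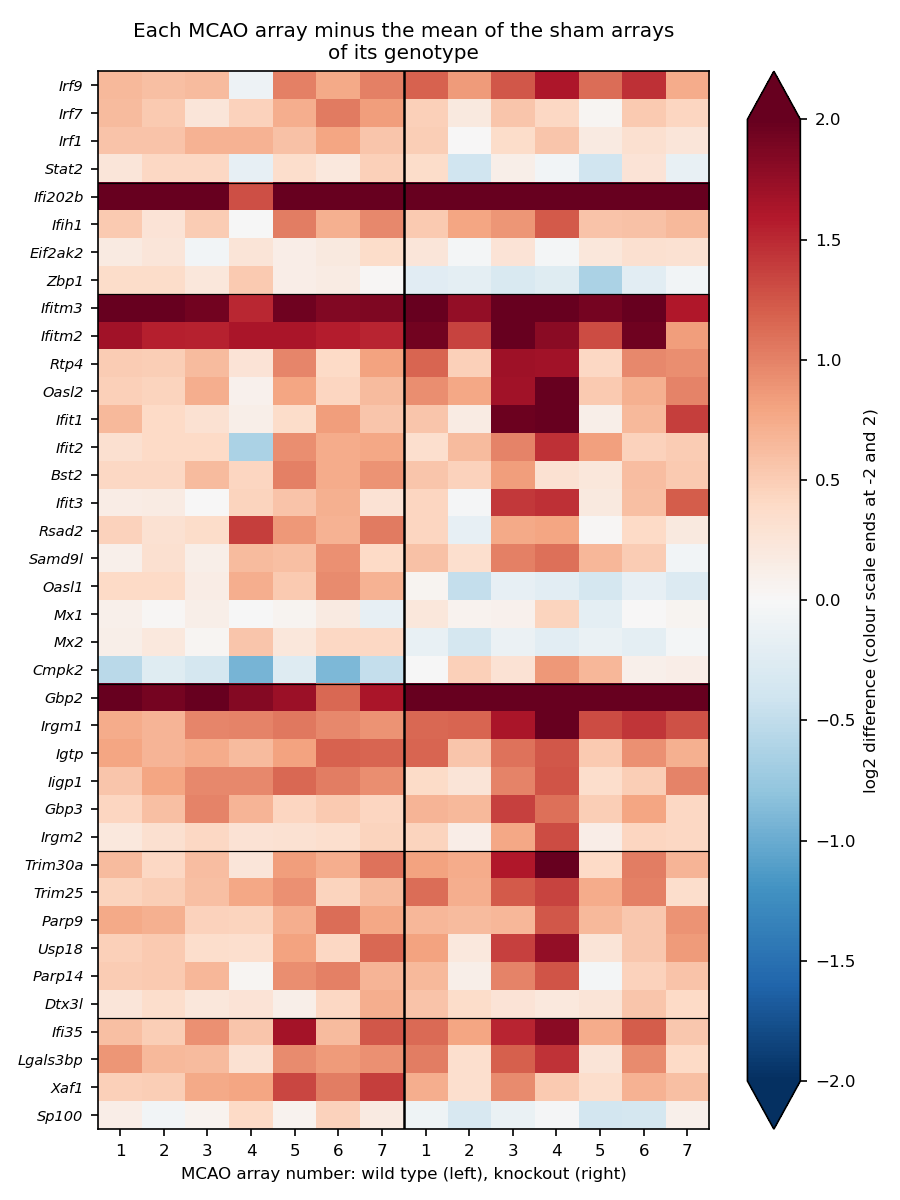
Each of the 14 MCAO arrays minus the mean of the 3 sham arrays of its genotype, for the 38 genes ordered by role, on a log2 colour scale that ends at -2 and 2. Knockout arrays 3 and 4 have the deepest red over the Ifit genes, Oasl2, Usp18 and Trim30a, and wild type array 4 is pale or blue for Irf9, Stat2, Ifih1 and Ifit2.

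Wild type MCAO array 4 differed from its group in another way. It was the lowest of 7 for 16 of the 38 genes, Irf9, Ifi202b and Ifitm3 among them, yet the highest for Rsad2, Zbp1 and Mx2. Its neutrophil marker level was 7.12 against 6.13 to 6.40 in the other wild type MCAO arrays, its endothelial level was 9.23 against 8.28 to 8.51, and its astrocyte level of 11.18 was the lowest. Its median correlation with its group over all genes, 0.980, was the lowest of the 7. The difference between its 3′ and 5′ actin control probe sets was 1.70, against 0.387 to 0.993 in the other 6. Without array 4 of both genotypes 27 genes were higher and 1 lower in wild type, and 25 were higher in knockout mice. Over all genes 1875 were then higher and 1464 lower in wild type, and 3153 and 1758 in knockout mice.

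The genotypes were then compared. The test of the difference between the MCAO changes called 1 of 38 genes higher and 1 lower in knockout mice, against 4.09% and 5.50% of all genes. None of the 10 genes called in knockout mice alone passed this test. For Oasl2 the difference was 0.60 (SE 0.36, adjusted p = 0.248), for Ifit1 0.53 (SE 0.47, adjusted p = 0.44) and for Trim30a 0.42 (SE 0.38, adjusted p = 0.445). For Gbp2 it was 0.82 (SE 0.43, adjusted p = 0.199) and for Irgm1 0.53 (SE 0.25, adjusted p = 0.146). The arrays therefore do not show these genes to respond more in the knockout. In simulated data the same test found 68% of 2-fold and 24% of 1.5-fold differences. The simulation changed 100 genes per size, while the real test called 744 genes higher and 1000 lower. Its shares may therefore not hold for the real arrays.

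The 2 genes called were Oasl1, an inhibitor of Irf7 translation, and Cmpk2, a mitochondrial nucleotide kinase. Oasl1 was at 6.01, 6.02 and 6.04 in the wild type sham arrays and at 6.18 to 6.98 (median 6.55) after MCAO. In knockout mice it was at 6.70, 6.54 and 6.90 after sham surgery and at 6.24 to 6.76 (median 6.51) after MCAO. The knockout sham arrays were thus as high as the MCAO arrays of either genotype, and the wild type sham arrays were below all the others. Oasl1 rose by 0.55 (SE 0.14, adjusted p = 0.00866) in wild type and changed by -0.23 (SE 0.14, adjusted p = 0.225) in knockout mice, a difference of -0.78 (SE 0.19, adjusted p = 0.0235).
Cmpk2 was at 8.14, 8.0 and 7.91 in the wild type sham arrays and at 7.08 to 7.78 (median 7.54) after MCAO, all lower. In knockout mice it was at 7.41, 7.46 and 7.30 after sham surgery and at 7.39 to 8.25 (median 7.69) after MCAO, with overlap. It fell by 0.53 (SE 0.17, adjusted p = 0.0411) in wild type and changed by 0.36 (SE 0.17, adjusted p = 0.125) in knockout mice, a difference of 0.89 (SE 0.24, adjusted p = 0.032). Another probe set of Cmpk2 had a difference of -0.37 (SE 0.24, adjusted p = 0.311) and fell by 0.50 in knockout mice (adjusted p = 0.0477 over all probe sets), so the 2 probe sets disagree.

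Both results use the sham arrays, which differed between genotypes in RNA measures as well. The difference between the 3′ and 5′ control probe sets of actin was 0.863 to 1.01 in wild type sham arrays and 1.60 to 1.76 in knockout sham arrays, without overlap. It was 0.387 to 1.70 and 0.426 to 1.75 in the MCAO arrays. With this measure as a covariate neither gene was called (Oasl1 -0.65, adjusted p = 0.0835, and Cmpk2 0.71, adjusted p = 0.112), and 0.00% and 0.0440% of all genes were called higher and lower. In the same analysis 22 of the 38 genes were higher and 1 lower after MCAO in wild type, against 11.2% and 9.90% of all genes. In the knockout 19 were higher and 0 lower, against 10.9% and 4.79%. After MCAO 1 gene was higher in knockout than in wild type mice, against 4.35% (1.07% lower), and after sham surgery 0 differed, against 0.0165% in each direction. Leaving out wild type sham array 1 or 2, or knockout sham array 2 or 3, also ended both calls, as did leaving out knockout MCAO arrays 2 and 5 together. Median centring moved the share of higher genes among all calls of this test from 42.7% to 24.5%, and a further quantile normalization to 22.1%. Genotype and this measure cannot be told apart in the sham arrays.

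**Figure D4:**
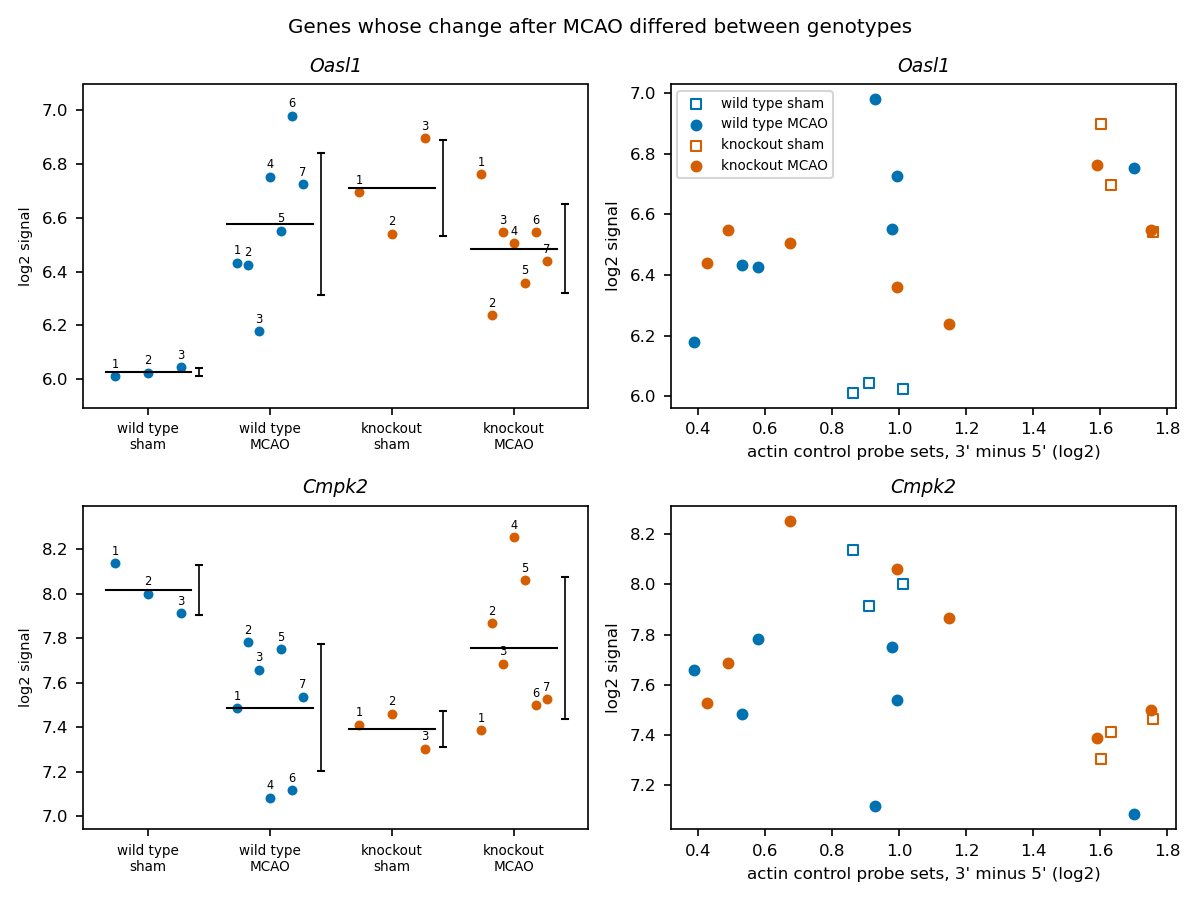
Log2 signal of Oasl1 and Cmpk2 in the 20 surgery arrays by group (left, with mean and SD), and against the difference between the 3′ and 5′ actin control probe sets (right). The 3 wild type sham arrays are lowest for Oasl1 and among the highest for Cmpk2, and the 3 knockout sham arrays lie at 1.60 to 1.76 on the actin axis.

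The knockout and wild type MCAO arrays differed in none of the 38 genes, against 0.0165% of all genes called higher and 0.0275% lower. At an unadjusted p under 0.05 there were 5 of the 38, beside 17.4% of all genes. These were Oasl2 (0.53, SE 0.20), Usp18 (0.49, SE 0.19), Irf9 (0.38, SE 0.16), Parp9 (0.27, SE 0.12) and Ifit1 (0.58, SE 0.26), all higher in the knockout, with limma adjusted p from 0.193 to 0.258. The values of both genotypes overlapped for all 38 genes. In the sham arrays 1 gene, Oasl1, was higher in the knockout (0.68, SE 0.16, adjusted p = 0.0245) and none was lower, against 3.52% and 2.53% of all genes. The call was lost without any 1 of the 3 wild type sham arrays or knockout sham array 2 or 3 (adjusted p = 0.0584 to 0.145). A further quantile normalization moved the share of higher genes among all calls from 58.2% to 85.5%. These arrays are the same ones that enter the test of the difference above. All 3 values of a genotype lay apart from the other 3 for 11 of the 38 genes, 8 higher and 3 lower in the knockout, against 20.4% and 21.8% of all genes. Among them were Cmpk2 (-0.62, adjusted p = 0.0671), Zbp1 (0.43, adjusted p = 0.078), Irf1 (0.33, adjusted p = 0.101) and Irgm1 (-0.49, adjusted p = 0.139), none of them called.

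In naive mice, which had no surgery, 1 array stood apart. Wild type naive array 6 had a median correlation of 0.817 with its group over all genes, against 0.985 to 0.994 for the other 7. Its Gapdh 3′ minus 5′ difference was 3.51, against -0.227 to -0.120 for the other 7. With all 15 arrays 7 genes were higher and 1 lower in knockout naive mice, against 6.37% and 8.31% of all genes. The values of the genotypes did not overlap for 5 genes higher (5.54%) and 1 lower (5.26%). Centring those 15 arrays left 0 higher and 3 lower, beside 196 higher and 2487 lower of all 18193 genes. It moved the share of higher genes among all calls from 43.4% to 7.31%. With the actin measure as a covariate 20 were higher and 2 lower, against 22.1% and 12.3%. Without array 6, 19 were higher and 2 lower, against 24.1% and 12.4% of all genes. With a further quantile normalization of those 14 arrays 13 were higher and 3 lower, against 10.3% and 11.8%. With each array centred on its median 13 were higher and 4 lower, against 6.50% and 27.6%.

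Gbp3 and Rtp4 had the largest differences without array 6. Gbp3 was at 5.58 to 5.94 (median 5.66) in those 7 wild type arrays, at 8.05 in array 6 and at 6.45 to 6.71 (median 6.56) in the 7 knockout arrays. Rtp4 was at 6.28 to 6.56 (median 6.35), at 7.98 in array 6 and at 6.98 to 7.27 (median 7.14) in the knockout. For both genes every knockout array was above the 7 wild type arrays and below array 6. The difference for Gbp3 was 0.59 (SE 0.30, adjusted p = 0.221) with all arrays, 0.88 (SE 0.06, adjusted p = 8.45e-08) without array 6 and 0.80 (SE 0.06, adjusted p = 2.74e-07) after a further quantile normalization. For Rtp4 it was 0.57 (SE 0.21, adjusted p = 0.0773), 0.77 (SE 0.06, adjusted p = 1.8e-07) without array 6, and after renormalization 0.64 (SE 0.06, adjusted p = 2.52e-06). The sham arrays did not show these differences. Their mean was 5.56 in knockout and 5.65 in wild type mice for Gbp3, and 6.24 and 6.39 for Rtp4, neither called.

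Other calls were made with array 6 included. Sp100 was at 5.15 to 5.35 in all 8 wild type arrays and at 5.59 to 5.90 in the knockout, a difference of 0.44 (SE 0.06, adjusted p = 0.000283) with all arrays and 0.46 (SE 0.05, adjusted p = 7.17e-06) in the renormalized 14. Irgm2 was at 5.19 to 5.47 and at 5.54 to 5.88, higher by 0.31 (SE 0.07, adjusted p = 0.00614) and, renormalized, 0.32 (SE 0.06, adjusted p = 0.00153). Irgm1 (0.41), Ifit3 (0.42), Eif2ak2 (0.40), Ifitm2 (0.33) and Lgals3bp (0.54) were also higher with all arrays. Of these Ifitm2 was not called in the renormalized 14 (0.16, adjusted p = 0.149). The call of Lgals3bp was lost in 16 of 28 alternatives and that of Ifitm2 in 12 of 28. Lgals3bp was at 6.41 in array 6 and at 7.68 to 7.79 in the other wild type arrays, so array 6 enlarges its difference.
In the other direction Ifi202b was at 4.62 to 4.91 in the 7 wild type arrays, 5.63 in array 6 and 4.33 to 4.56 in the knockout. It was lower by 0.45 on the log2 scale in the fit of all arrays (-0.45, SE 0.12, adjusted p = 0.0202). Iigp1, whose gene lies on the same chromosome as that of the receptor, changed by -0.52 (SE 0.18, adjusted p = 0.0671) with all arrays and was lower without array 6 (-0.36, SE 0.09, adjusted p = 0.00407).

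The naive arrays of the genotypes also differed as whole arrays. Their medians over all probe sets were 6.87 to 6.94 in wild type and 7.03 to 7.05 in the knockout. Between 3.87% and 6.38% of values were identical between any 2 knockout arrays, against at most 0.106% between wild type arrays and 0 between genotypes. Genotype and the way the arrays of each genotype were normalized cannot be told apart in these arrays.

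**Figure D5:**
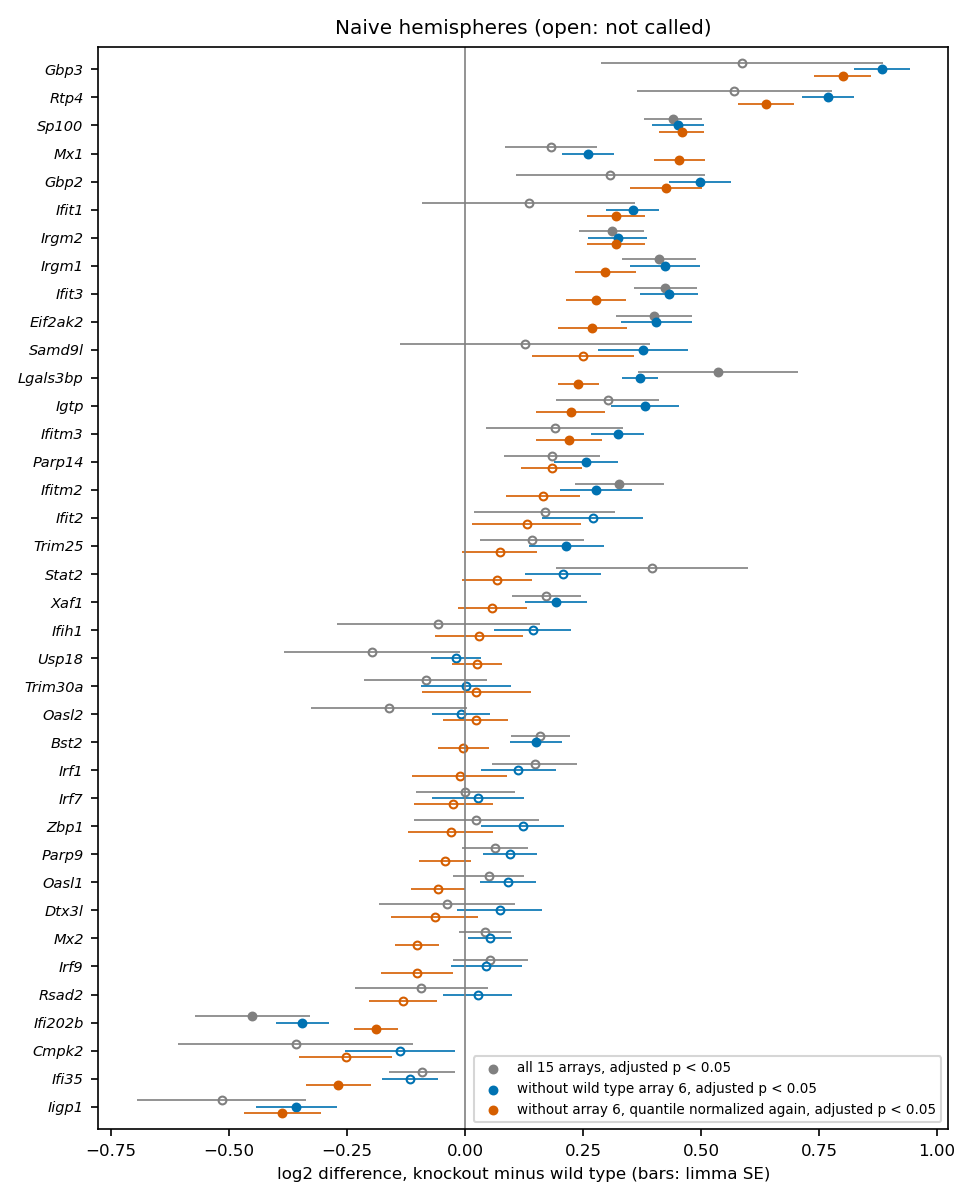
Knockout minus wild type log2 difference of the 38 genes in naive hemispheres, with limma standard errors, in the fit of all 15 arrays (grey), without wild type array 6 (blue) and without it after a further quantile normalization (orange). Filled points passed an adjusted p under 0.05. Gbp3 and Rtp4 lie at 0.57 to 0.88 in the 3 fits, with far wider errors when array 6 is included.

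The rest of the interferon pathway was followed through 75 further listed genes, of which 67 were measured. In wild type 20 rose and 1 fell after MCAO, and in knockout mice 17 rose and 3 fell, beside the shares of all genes given above. Without wild type sham array 1, 2 or 3 the wild type calls numbered 9, 12 and 12. Without knockout sham array 2 or 3 the knockout calls numbered 11 each. Over all genes 897, 993 and 863 were then higher in wild type, and 1750 and 1839 in knockout mice. The lower calls were 538, 865 and 808 in wild type, and 683 and 498 in knockout mice. Of the 5 measured interferon genes none rose. Ifnb1 changed by 0.10 in wild type (SE 0.11, adjusted p = 0.558) and -0.09 in the knockout (SE 0.11, adjusted p = 0.549), and Ifng by -0.03 and 0.02 (adjusted p = 0.892 and 0.893). Ifna1 fell by 0.65 in knockout mice (SE 0.12, adjusted p = 0.000502). Of the 6 receptor chains 1 rose in wild type and 3 in knockout mice. Ifnar2, a chain of the type I receptor, rose in both, by 0.43 in wild type (SE 0.14, adjusted p = 0.0485) and 0.62 in the knockout (SE 0.14, adjusted p = 0.00379).

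Of the 5 inhibitors 2 rose in each genotype. Socs3, which blocks JAK kinases and is also induced by interleukin-6, rose by 2.84 (SE 0.21) in both, with adjusted p of 5.3e-08 and 2.3e-08. Of 7 kinases and factors 1 rose in wild type and 3 in knockout mice, with Irf8, a factor of myeloid cells, at 0.69 in wild type (SE 0.18, adjusted p = 0.0136) and 0.73 in the knockout (SE 0.18, adjusted p = 0.00654). Of 33 further interferon-stimulated genes 12 rose and 1 fell in wild type, and 8 rose and 1 fell in knockout mice. Cxcl10, a chemokine for T cells, rose by 1.84 in wild type (SE 0.50, adjusted p = 0.0165) and 2.13 in the knockout (SE 0.50, adjusted p = 0.00445). Ifitm1, the neighbour of Ifitm2 and Ifitm3, rose by 1.69 in wild type (SE 0.26, adjusted p = 0.00021) and 1.92 in the knockout (SE 0.26, adjusted p = 3.72e-05). Psmb8, a subunit of the immunoproteasome, rose by 0.85 in wild type (SE 0.19, adjusted p = 0.00408) and 1.03 in the knockout (SE 0.19, adjusted p = 0.00054).

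Of 11 sensing genes 4 rose in wild type, and 1 rose and 1 fell in knockout mice. Tlr7, the receptor for single-stranded RNA, rose by 0.94 in wild type (SE 0.27, adjusted p = 0.023) and 0.80 in the knockout (SE 0.27, adjusted p = 0.0354). Cgas, the sensor of DNA in the cytosol, rose by 0.35 (SE 0.09, adjusted p = 0.0125) in wild type and changed by -0.19 (SE 0.09, adjusted p = 0.135) in knockout mice. Of the 67 genes 6, Cgas, Tlr9, Samhd1, Slfn5, Apobec3 and Ifna1, had a lower MCAO change in knockout mice, and none a higher one, against 5.50% and 4.09% of all genes. In the sham arrays, which enter that test, 6 of the 67 were higher in the knockout and none lower, against 3.52% and 2.53%. These were Apobec3, Slfn5, Samhd1, Ifna1, Cgas and Ticam1, at 0.34 to 0.68. Without wild type sham array 1, 2 or 3 the count of the difference test was 1, 1 and 3. Without knockout sham array 2 or 3 it was 1 and 0. Over all genes the lower calls of that test were then 72, 238 and 616, and 130 and 0. The sham count was 0, 0 and 1 without wild type sham array 1, 2 or 3, and 0 without knockout sham array 2 or 3. Over all genes the higher sham calls were then 67, 0 and 76, and 17 and 0. With the actin measure as a covariate none of the 67 was called in the test of the difference.

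Genes with and without the core rose in like numbers. Of the 15 genes with a response element core, 9 rose in wild type and 12 in the knockout. Of the 15 with a window and no such core, 9 and 12 rose. The median changes were 0.65 and 0.79 with the core, and 0.61 and 0.60 without it. Of the 9 genes with TTCNNNGAA, 6 rose in wild type and 8 in the knockout.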

How the data were processed

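Hemisphere RNA was hybridised to 35 Affymetrix arrays. The authors deposited log2 signals. RMA is named in the submitters' processing notes, and the naive arrays were normalized apart according to the series' design text. The RMA version is not given in the sources used here. The platform annotation lists 1 symbol for 34945 of 45101 probe sets, several for 932 and none for 9160, and 64 are controls. Entrez identifiers linked 34754 of them to RefSeq symbols (GRCm38.p6). Arrays hold no read depth, and their number limits the precision.

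Linear models with moderated statistics (limma 3.58.1 in R 4.3.3) were fitted to the 20 surgery arrays and, apart, to the 15 naive arrays. Adjustment was by Benjamini and Hochberg across 18193 genes, no dim gene was removed, and 0.05 was the threshold. SE is the standard error limma gives. The level of the receptor gene is not given here. The members, the pathway and marker lists and the tests were chosen with earlier results of these data known. Full statistics are given for up to 10 called members a direction and comparison by size of change, and for members called between genotypes. Called pathway genes are those of smallest p, up to 4 a list. Ifnb1, Ifng and the values of uncalled members given beside them were chosen after their values were seen.

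In simulated data, with 100 genes changed per size, 2-fold changes were found at 89% (wild type MCAO), 93% (knockout MCAO), 98% (genotype, MCAO arrays), 84% (genotype, sham arrays) and 80% (naive). For 1.5-fold changes these were 50%, 53%, 83%, 53% and 60%. Noise was drawn independently for each gene, so these shares may not hold for the real arrays. Alternatives tried were a robust prior with an intensity trend, removal of dim genes, other uses of a gene's probe sets, other scalings, array weights, a threshold of 0.01, a replicate block, control probe covariates, fits of the compared arrays alone, and each array left out in turn. Fits without arrays that stood apart were added after seeing the data.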

Additional observations from a re-analysis of the deposited data

Results flagged for a closer look

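An array was set apart when its gap to the nearest array of its group, over the range of the group, passed Dixon's critical value. Of 152 tests of 38 genes in 4 groups of 7 or 8 arrays, 26 passed, and chance alone flags about 1 in 20 groups. Wild type naive array 6 gave 18 of the 26. It was high for Ifih1 (7.98), Zbp1 (7.76), Ifi202b (5.63), Ifit1 (7.30), Oasl2 (6.53), Mx1 (4.90), Rsad2 (7.91), Cmpk2 (10.55), Ifitm3 (10.18), Samd9l (8.48), Rtp4 (7.98), Gbp2 (7.29), Gbp3 (8.05), Iigp1 (7.10), Usp18 (6.68) and Parp14 (6.43), and low for Stat2 (5.97) and Lgals3bp (6.41), on the log2 scale. Wild type MCAO array 4 gave 5, all low, for Stat2 (6.88), Irf9 (6.76), Ifi202b (5.18), Ifit2 (5.73) and Ifitm3 (10.45). The other 3 were knockout MCAO array 5 for Zbp1 (6.38, low), knockout naive array 2 for Eif2ak2 (7.06, high) and knockout naive array 3 for Lgals3bp (8.04, low).

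The change after MCAO differed between genotypes by the test of the difference for Oasl1 (-0.78) and Cmpk2 (0.89). These are 1 lower and 1 higher of 38, against 5.50% and 4.09% of all genes. Neither gene was called with the actin covariate. With the mean of its probe sets Cmpk2 was at 0.26 (limma adjusted p = 0.373).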

How the results depend on the processing

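No called value changed sign under any alternative that was run. Some alternatives could not change a value: the threshold of 0.01, the robust prior with an intensity trend, and leaving out an array of a group not compared. The Oasl1 difference after sham surgery, for example, stayed at 0.68 in each of these. The calls counted next as held include such alternatives, so their shares are partly fixed in advance. Of the called genes tested again under every alternative, 824 of 944 calls held for MCAO in knockout mice, 660 of 711 in wild type, 49 of 66 for the difference, 27 of 34 for genotype after sham surgery and 183 of 220 for naive genotype. Leaving out 1 array at a time gave 13 to 24 called genes of the 38 for MCAO in wild type, 16 to 29 in knockout mice, 0 to 3 for the difference, 0 to 0 after MCAO, 0 to 2 after sham surgery and 6 to 21 in naive mice (21 without wild type naive array 6). For the 67 further pathway genes the ranges were 9 to 23, 11 to 24, 0 to 9, 0 to 0, 0 to 7 and 11 to 28.

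At an adjusted p under 0.01 the counts of the 38 were 13 in wild type, 16 in knockout mice, 0 for the difference, 0 after sham surgery and 5 in naive mice, and of the 67 they were 7, 12, 0 and 0 for the first 4. Over all 18193 genes that threshold called 738 higher and 548 lower in wild type, and 1714 and 456 in knockout mice. For the difference it called 0 and 0, after sham surgery 4 and 2, and in naive mice 498 and 844. Counts over all genes, higher and then lower, follow each set of counts below. The cause of the shifts that follow was not tested. For the difference, 1 of the 38 was called after a further quantile normalization, 1 with the Gapdh covariate, 0 with the actin covariate and 0 without the 2 knockout MCAO arrays of highest Gapdh difference, and of the 67 these gave, where they moved the count, 3 (Gapdh), 0 (actin) and 1 (without the 2 arrays), with 3 without the dimmest genes and 12 with array weights. Over all genes the difference test called 75 and 264 after the quantile normalization, 259 and 498 with Gapdh and 0 and 8 with actin. It called 159 and 295 without the 2 arrays, 559 and 278 of 12128 without the dimmest genes, and 2193 and 1907 with weights. After MCAO the actin covariate gave 1 of the 38 and 1 of the 67 between genotypes, and in knockout mice 13 of the 67. Over all genes it called 792 and 194 between genotypes, and 1985 and 871 for MCAO in knockout mice. After sham surgery the 38 gave 2 with the mean of probe sets, 7 with array weights and 0 with the actin covariate. They gave 2 with only the arrays compared and 2 without MCAO array 4 of both genotypes. The 67 gave 3 without the dimmest genes, 22 with weights, 0 with actin and 14 with only the arrays compared. Over all genes the mean of probe sets called 675 and 403, weights 3058 and 2833, and actin 3 and 3. Only the arrays compared gave 1610 and 1841, and the fit without array 4 gave 1126 and 1062. Without the dimmest genes 167 and 358 of 12128 were called. In naive mice the 38 gave 2 without the dimmest genes, 3 with median centring, 21 with weights, 22 with either covariate, 17 without array 6 and median centring, and 16 without it and renormalized. There the 67 gave 5 without the dimmest genes, 6 renormalized, 30 with weights, and 27 and 26 with Gapdh and actin. Without array 6 they gave 24 with centring and 22 with renormalization. Over all genes weights called 5046 and 2591, Gapdh 4347 and 2333, and actin 4012 and 2231. Centring called 196 and 2487, renormalization 529 and 970, and the fit without the dimmest genes 485 and 30 of 12128. Without array 6 centring called 1182 and 5024, and renormalization 1882 and 2155.

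With the replicate number as a block 14 of the 38 rose in wild type, 19 in knockout mice and 5 in naive mice. Of the 67, 9 were called in wild type. Over all genes 1082 were then higher and 942 lower in wild type, 2544 and 1382 in the knockout, and 751 and 1107 in naive mice. The labels do not say whether same-numbered arrays share a batch or an order, and this was not tested. The correlation of deviations between same-numbered arrays passed 0.1 in 5 of 22 surgery pairs (-0.28 to 0.34). It did so in 5 of 7 naive pairs (-0.09 to 0.36).

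Calls that no alternative ended were those of Irf7, Irf1, Ifi202b, Bst2, Ifitm2, Ifitm3, Gbp2, Igtp, Irgm1, Iigp1, Parp9 and Xaf1 in wild type, and of Irf9, Ifih1, Ifi202b, Oasl2, Ifitm2, Ifitm3, Rtp4, Gbp2, Gbp3, Igtp, Irgm1, Trim25, Parp9 and Ifi35 in knockout mice. With 3 sham arrays a genotype, the simulated MCAO tests found 50% and 53% of 1.5-fold changes.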
